A study of Rattus norvegicus with 12 samples.

Results

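Signals of 9 genes of cholesterol synthesis were compared in the livers of 12 rats. The genes were chosen as enzymes of the pathway from mevalonate to cholesterol (Mvk, Mvd, Idi1, Fdps, Fdft1, Sqle, Lss and Dhcr7) together with Insig1, which regulates it. A gene was counted when a probe set carried its symbol and no other, which held for 9 of the 10 genes named and gave 10 of 15310 probe sets, 2 of them for Insig1. Hmgcs1 was not analysed here. The rats were male diet-induced obese Sprague-Dawley rats, a strain bred to gain weight on rich food, that ate a high fat, high sucrose diet from 12 to 20 weeks of age. The leucine diet took 7.1% of its energy from casein and 2.9% from free leucine (4 livers), the dairy diet was made with skim milk powder as its source of protein (4 livers), and casein, the main milk protein, was the control (4 livers). Protein gave 10% of the energy in all 3 diets and the energy density was 4.6 kcal per gram. The effects of leucine and of the smaller amount of casein cannot be told apart by this design, nor can those of dairy protein and the rest of the milk powder. Signals are log2 values from Affymetrix Rat Gene 1.0 ST arrays, 1 array a liver, so a difference of 1 is a doubling. The labels number the livers within a diet and do not say how rats were housed or processed together, so p-values measure the spread between these samples.

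Cholesterol is built in liver from acetyl-CoA through mevalonate, isoprenoid units, squalene and lanosterol. The genes of this route share a regulator, SREBP-2, a transcription factor that is held in the endoplasmic reticulum with its escort Scap when sterols are plentiful. INSIG proteins do the holding. When sterols fall, SREBP-2 is carried to the Golgi, cut by proteases and enters the nucleus, where it works together with the CCAAT-binding factor NF-Y and with Sp1. Insig1 is itself a target of SREBPs, which closes a feedback loop.

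Several of the 9 genes varied strongly between livers of the same diet, and 0 of the 10 probe sets passed the test between diets. Idi1, Sqle and Lss had within-diet SDs of 0.839, 0.853 and 0.972 on the log2 scale, against a median of 0.295 over all 15310 probe sets, of which at least 96.3% had an SD no higher than these. Mvk, Fdps and Mvd lay nearer to that median, with within-diet SDs of 0.354, 0.417 and 0.446. Leucine replicate 3 was among the 3 highest livers for all 9 genes, and leucine replicate 4 was the lowest liver for 6 of them. Most of the enzymes moved up and down together over the 12 livers, and the gene outside the 9 whose pattern was most like theirs was Cyp51, the next enzyme after Lss. Insig1 and Lss did not follow this pattern, though Lss had r = 0.56 with Sqle.

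Because several of these genes moved together, the sequence before their starts is shown for Mvk, Fdps and Idi1, which moved together, and for Lss, which did not. RefSeq promoter windows of build GRCr8, from 250 bases before to 50 bases after a gene's start, were matched for 7 of the 9 genes, all but Fdft1 and Sqle. The 250 bases before the start are printed 5′ to 3′ on the gene's strand, with the CCAAT box of NF-Y (CCAAT, or ATTGG on the other strand) in capitals.
Mvk (chr12:47819504-47819753, - strand): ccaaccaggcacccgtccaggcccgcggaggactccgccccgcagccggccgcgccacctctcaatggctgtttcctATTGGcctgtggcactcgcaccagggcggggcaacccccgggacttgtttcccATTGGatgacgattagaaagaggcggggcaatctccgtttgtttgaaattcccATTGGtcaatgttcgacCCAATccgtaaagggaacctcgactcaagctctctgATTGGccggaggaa
Fdps (chr2:176804817-176805066, - strand): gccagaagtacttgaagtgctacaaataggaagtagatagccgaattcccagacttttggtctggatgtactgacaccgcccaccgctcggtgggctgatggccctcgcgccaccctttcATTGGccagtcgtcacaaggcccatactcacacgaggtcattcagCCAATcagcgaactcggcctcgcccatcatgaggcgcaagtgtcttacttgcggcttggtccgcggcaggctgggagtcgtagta
Idi1 (chr17:66547525-66547774, - strand): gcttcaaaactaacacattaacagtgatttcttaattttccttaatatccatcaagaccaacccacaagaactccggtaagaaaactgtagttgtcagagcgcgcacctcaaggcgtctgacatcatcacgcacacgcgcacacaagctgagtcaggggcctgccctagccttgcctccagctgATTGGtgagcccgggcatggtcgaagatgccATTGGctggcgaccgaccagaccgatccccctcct
Lss (chr20:12118231-12118480, - strand): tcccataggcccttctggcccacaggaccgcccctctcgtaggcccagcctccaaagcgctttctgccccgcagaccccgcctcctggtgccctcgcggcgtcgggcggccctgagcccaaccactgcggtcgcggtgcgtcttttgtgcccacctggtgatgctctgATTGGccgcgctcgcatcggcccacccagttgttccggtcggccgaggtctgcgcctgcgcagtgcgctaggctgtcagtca
The CCAAT box, searched on both strands, was found in 6 of the 7 windows (all but Dhcr7), against 37.5% of 33469 windows of the same length. At least 2 boxes stood in 4 of the 7 windows, those of Mvk, Mvd, Fdps and Idi1, against 11% of all windows. Mvk had 5 boxes before its start, and Dhcr7, whose sequence is not printed, had none in its window. The correlation r of Dhcr7 over the livers was 0.87 with Fdps and 0.76 with Mvk, but 0.37 with Idi1 and 0.21 with Sqle. Lss and Insig1 had 1 box each before their starts. Whether the count of boxes went with the correlations was not tested. The Sp1 box GGGCGG, or CCGCCC on the other strand, was found in 6 of the 7 (33.1% of all windows), and Idi1 had none. The letters TCACNCCAC, a form of the sterol regulatory element of SREBP, or their reverse complement were found in 0 of the 7 windows and in 1.12% of all windows. Matches of different motifs did not overlap in these windows, and a match describes the sequence only.

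The early enzymes phosphorylate mevalonate and turn it into isoprenoid units. Mvk, mevalonate kinase (probe set 10940535), had log2 signals of 6.73, 7.15, 7.09 and 6.10 in leucine livers, 6.95, 6.99, 6.71 and 6.40 in dairy livers, and 7.17, 6.85, 6.60 and 7.09 in casein livers. It was the steadiest of the 9 genes, with an SD over 12 livers of 0.33, close to the median of 0.305 over all probe sets. Mvd, the decarboxylase that makes isopentenyl diphosphate (10811560), had 6.03, 6.48, 7.12 and 5.72 in leucine livers, 6.93, 7.16, 6.66 and 6.61 in dairy livers, and 6.75, 6.41, 5.82 and 6.52 in casein livers. Its 3 diets overlapped, with casein replicate 3 and leucine replicate 4 lowest.

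Idi1, the isomerase that makes the reactive partner of isopentenyl diphosphate (10799241), had 7.44, 8.41, 9.70 and 7.04 in leucine livers, 7.39, 8.58, 7.08 and 7.81 in dairy livers, and 8.36, 7.24, 7.64 and 8.27 in casein livers. The lowest and the highest of the 12 values both came from leucine livers, 2.66 apart on the log2 scale or 6.31-fold. Fdps, farnesyl diphosphate synthase (10940465), had 10.20, 10.61, 11.16 and 9.59 in leucine livers, 10.91, 10.83, 10.58 and 10.34 in dairy livers, and 10.64, 10.32, 10.45 and 10.39 in casein livers. All 4 casein livers of Fdps lay within the range of the leucine livers.

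Squalene is made by Fdft1, oxidised by Sqle and closed to lanosterol by Lss. Fdft1, squalene synthase (10784454), had log2 signals of 8.41, 9.63, 9.76 and 7.94 in leucine livers, 9.19, 8.86, 8.69 and 8.19 in dairy livers, and 9.71, 9.28, 8.53 and 9.22 in casein livers. Sqle, squalene epoxidase, a rate-limiting step of the later pathway (10896772), had 6.73, 8.42, 9.78 and 7.75 in leucine livers, 7.57, 8.70, 7.46 and 8.51 in dairy livers, and 8.01, 7.28, 7.98 and 8.10 in casein livers. Sqle had the widest range of the 9 genes, 3.05 on the log2 scale or 8.28-fold, between leucine replicates 1 and 3.

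Lss, lanosterol synthase (10832378), had 6.45, 7.44, 9.05 and 8.20 in leucine livers, 7.92, 8.68, 7.54 and 8.31 in dairy livers, and 7.33, 8.03, 9.38 and 6.65 in casein livers. Casein replicate 3, among the 3 lowest livers for Mvk and Mvd, was the highest liver for Lss. Dhcr7, which reduces the last double bond on the way to cholesterol (10712560), had 7.76, 8.33, 8.53 and 7.0 in leucine livers, 9.26, 8.45, 8.20 and 7.76 in dairy livers, and 8.81, 8.12, 8.34 and 8.09 in casein livers. Dairy replicate 1 was highest and leucine replicate 4 lowest.

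Insig1 had 2 probe sets, which followed each other over the 12 livers (r = 0.94 over the 12 livers, as 2 readings of 1 gene). The brighter one (10859880) had log2 signals of 11.80, 11.59, 11.77 and 10.91 in leucine livers, 11.21, 10.74, 9.43 and 11.59 in dairy livers, and 10.70, 11.28, 10.71 and 10.54 in casein livers. Of the leucine livers 3 lay above every casein liver and the other one lay above all casein livers but replicate 2. Dairy replicate 3, 1 of the 2 arrays of narrowest spread, was the lowest liver for Insig1.

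**Figure D1:**
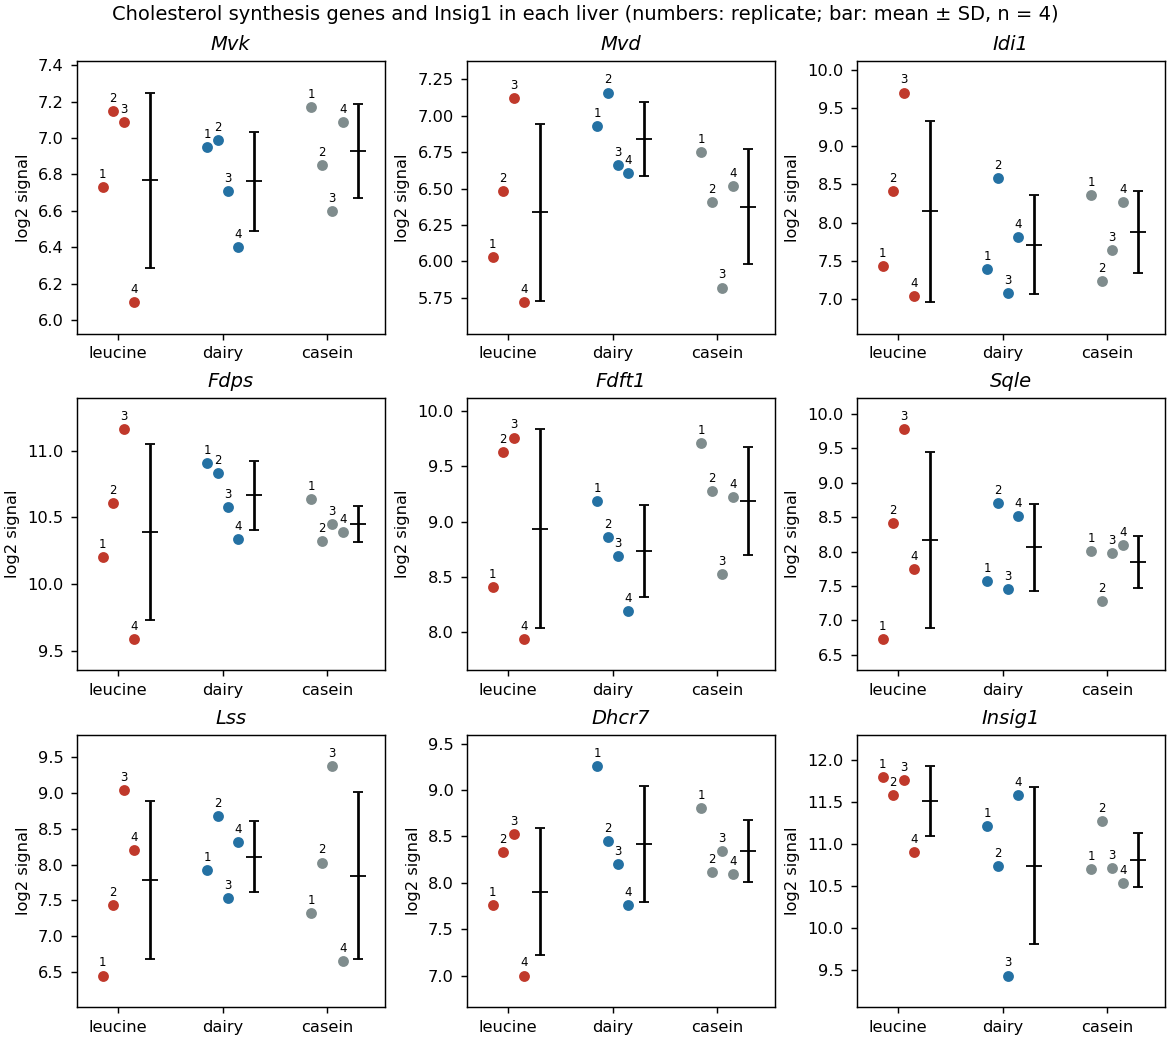
Log2 signal (vertical axis of each panel) of the 9 genes in each liver, with leucine, dairy and casein livers from left to right. Points are livers with their replicate numbers, and black marks show the mean and SD of 4 livers. The diets overlap in every panel, and Insig1 has the highest mean with leucine (11.52, against 10.74 with dairy and 10.81 with casein).

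For the leucine diet against casein, the question was whether added leucine in place of some casein went with other levels of these genes. None of the 10 probe sets passed limma's test after Benjamini-Hochberg adjustment over all 15310 probe sets, where 0.0% passed, and each adjusted p was 0.999. At an unadjusted p under 0.05 there were 0 of 10, against 3.31% of all probe sets, and in 0 of 10 did the 4 leucine values all lie on one side of the 4 casein values, against 2.44%. Single livers were also left out. The count at an unadjusted p under 0.05 was then 2 without leucine replicate 4, where 391 of all 15310 probe sets had it. It was 2 without dairy replicate 3 (665 of all), 1 without casein replicate 2 (397 of all) and 0 without any other. Insig1 has 2 of the 10 probe sets, so a count of 2 can be 1 gene. By brighter probe set 3 of the 9 genes had a higher and 6 a lower mean with leucine. Their median difference was -0.061, and it was -0.029 over all probe sets. Insig1 was the farthest from 0 with all 12 livers, with a mean of 11.52 ± 0.415 in leucine livers and 10.81 ± 0.325 in casein livers (SD, n = 4 each), a log2 difference of 0.71 ± 0.387 (SE, limma adjusted p = 0.999) whose 95% interval ran from -0.13 to 1.55. Its other probe set differed by 0.69 (interval -0.11 to 1.5). Without leucine replicate 1 Sqle lay farther from 0 than Insig1 (0.809 and 0.619), and without leucine replicate 3 Dhcr7 did (-0.641 and 0.628). Dhcr7 had means of 7.90 ± 0.687 in leucine livers and 8.34 ± 0.334 in casein livers, a difference of -0.43 with an interval from -1.21 to 0.35. The difference of Dhcr7 was -0.13 without leucine replicate 4 and -0.275 without casein replicate 1. The intervals of Idi1 (-0.84 to 1.39), Sqle (-0.81 to 1.47) and Lss (-1.35 to 1.23) included 0 and also included changes of more than 1 on the log2 scale.

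For the dairy diet against casein, 0 of the 10 probe sets passed, with adjusted p from 0.557 to 0.966, while 13 of 15310 (0.0849%) passed in the whole table. That count over all probe sets rested on single arrays, since it ran from 3 (without dairy replicate 1 or casein replicate 1) to 237 (without casein replicate 4). At an unadjusted p under 0.05 there were 0 of 10, against 10.9% of all probe sets, and 0 of 10 had diets that did not overlap, against 4.27%. The 9 genes were split, 5 with a higher and 4 with a lower mean. Mvd had the highest difference with all 12 livers, with means of 6.84 ± 0.259 in dairy livers and 6.37 ± 0.398 in casein livers (SD, n = 4 each), a log2 difference of 0.47 ± 0.287 (SE, limma adjusted p = 0.557, 95% interval -0.16 to 1.09). Without casein replicate 3 it was 0.281 for Mvd and 0.776 for Lss. Fdft1 had the lowest, with 8.74 ± 0.417 in dairy livers and 9.18 ± 0.484 in casein livers, a difference of -0.45 ± 0.397 (SE, limma adjusted p = 0.708, 95% interval -1.31 to 0.41), which was -0.274 without casein replicate 1 and -0.267 without dairy replicate 4. The median difference of the 9 genes was 0.079, against -0.022 over all probe sets.

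Between leucine and dairy 0 of the 10 probe sets passed (0.0% of all), with adjusted p from 0.730 to 0.996. At an unadjusted p under 0.05 there were 0 of 10, against 6.95%, and 0 of 10 had diets that did not overlap, against 5.09%. Leaving out 1 liver at a time, the unadjusted count was 2 without leucine replicate 3 or 4 (1051 and 1009 of 15310 probe sets). It was 1 without dairy replicate 1 or 4 (1134 and 1443 of all) and 0 without any other. Insig1 was again farthest from 0 with all 12 livers, by 0.78 ± 0.387 for the brighter probe set (SE, limma adjusted p = 0.730, 95% interval -0.06 to 1.62) and by 0.57 for the other. Without dairy replicate 3, an array of narrow spread, these were 0.34 and 0.228, nearer to 0 than Mvd (-0.567) and Dhcr7 (-0.584). With all 12 livers Mvd and Dhcr7 each differed by -0.51, with intervals from -1.13 to 0.12 and from -1.29 to 0.27. Without leucine replicate 4 they differed by -0.299 and -0.209, without leucine replicate 3 Mvd differed by -0.766, and without dairy replicate 1 Dhcr7 differed by -0.232. Leucine livers enter both this comparison and that with casein, so the values of Insig1 in the 2 comparisons are not separate evidence. The moderated F test for any diet effect passed 0 of 10 probe sets (0.0327% of all), with a smallest adjusted p of 0.734. The 5 probe sets behind that share became 0 without casein replicate 1, 2 or 3 and 23 without casein replicate 4, and were 2 to 6 without any other liver.

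Other enzymes of the pathway, from a list of 12 measured genes, likewise had 0 past the threshold in each comparison. Their median difference was -0.205 for leucine against casein, with a lower mean for 11 of 12 genes. For dairy against casein it was -0.531, also with a lower mean for 11 of 12, and both comparisons share the casein livers. Over all probe sets the medians were -0.029 and -0.022, and 43.8% and 46.9% had a higher mean than casein. Single livers were not left out for these differences. Sc5d, which introduces a double bond late in the pathway, differed by -0.69 between dairy and casein (limma adjusted p = 0.533) and Ebp, a sterol isomerase, by -0.59 (adjusted p = 0.543). The list also holds Acat1, a mitochondrial thiolase better known from ketone body and isoleucine metabolism, at -0.79 (adjusted p = 0.409). The 9 genes and these 12 thus had medians of opposite sign for dairy against casein (0.079 and -0.531), and neither set had a gene past the threshold.

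The spread between livers of the same diet was itself unequal. The SD of the 4 leucine livers was higher than that of the 4 casein livers for 8 of the 9 genes, against 32.2% of all 14506 genes, and higher than that of the 4 dairy livers for 8 of 9, against 37.4%. Sqle had an SD of 1.278 with leucine, 0.637 with dairy and 0.379 with casein, and Fdps had 0.661, 0.259 and 0.137. The median ratio of the leucine to the casein SD was 1.88 over the 9 genes and 0.75 over all genes. The exceptions were Lss against casein (1.108 with leucine, 1.169 with casein) and Insig1 against dairy (0.415 with leucine, 0.938 with dairy). Without leucine replicate 3 the leucine SD was above the casein SD for 7 of 9 genes (30.5% of all genes), and without leucine replicate 4 for 7 of 9 (30.8%). Against the dairy SD the count was 8 of 9 without leucine replicate 3 (35.4% of all genes) and 6 of 9 without leucine replicate 4 (35.0%). These genes vary together, so the counts describe 4 livers and not 9 separate observations, and the difference in spread was not tested. Of the 12 other enzymes 9 had a higher SD with leucine than with casein, and 6 did without leucine replicate 4.

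**Figure D2:**
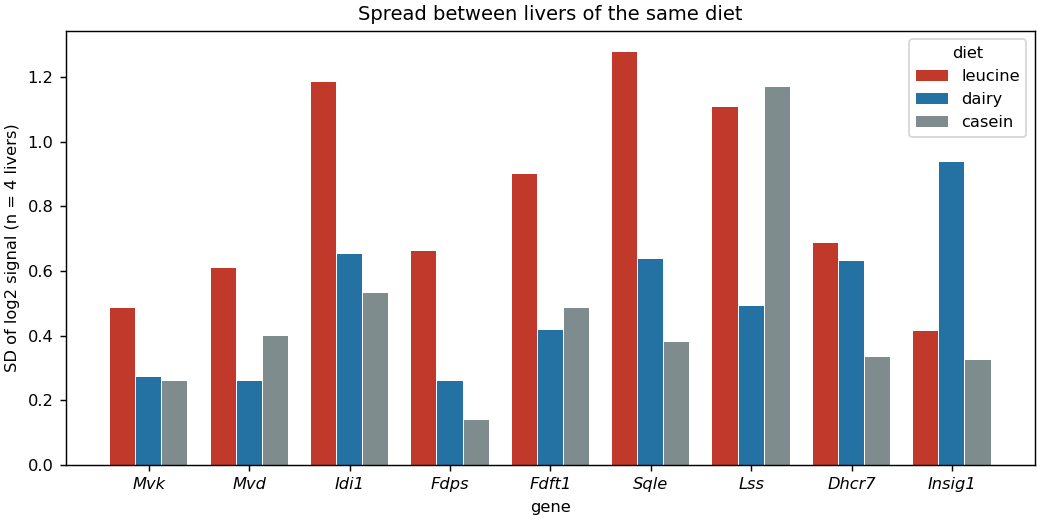
SD of the log2 signal over the 4 livers of each diet (vertical axis, from 0) for the 9 genes, with leucine, dairy and casein bars from left to right. The leucine bar is above the casein bar for all genes but Lss, and above the dairy bar for all but Insig1.

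Coordinated variation was described by the correlation between genes over the 12 livers, with 1 probe set a gene. Of the 36 pairs 32 had r above 0, the median r was 0.47, and 18 pairs had r of at least 0.5, against 12.1% of all pairs among 14506 genes, whose median r was 0. After each diet's mean was subtracted the median was 0.55, so the relation was not only one between diet means. That value pools the livers of all diets, and the leucine livers, with the widest spread for most of these genes, weigh most in it. The correlation within each diet alone was not computed. Adjusted p-values over these pairs alone are not given, since the genes were chosen with earlier results known. The closest pair was Mvk and Fdft1, mevalonate kinase and squalene synthase, with r = 0.92 and rho = 0.91 over the 12 livers (permutation p = 1e-05, the smallest that 100000 resamples can give, and 0.00015, unadjusted). Fdps and Dhcr7 had r = 0.87 and rho = 0.91 (permutation p = 0.0009 and 9e-05), Idi1 and Sqle 0.87 and 0.83 (0.00049 and 0.00119), and Mvd and Fdps 0.84 and 0.85 (0.00021 and 0.00106), all unadjusted. Without the 2 livers farthest from the median of the gene named first, r was 0.88 for Mvk with Fdft1, 0.87 for Fdps with Dhcr7, 0.65 for Idi1 with Sqle, and 0.88 for Mvd with Fdps. Without those farthest in the gene named second, r was 0.88, 0.72, 0.81 and 0.74 in the same order.

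These 4 pairs kept a high r without the arrays of narrowest spread, dairy replicate 3 and casein replicate 4 (from 0.85 to 0.93). Some other pairs rested on few livers and some did not. Idi1 with Fdft1 had r = 0.64, which was 0.62 without the 2 livers farthest in Idi1 and 0.63 without those farthest in Fdft1. Mvk with Idi1 had r = 0.63, which was 0.69 without those farthest in Mvk and 0.67 without those farthest in Idi1. Fdps with Fdft1 had r = 0.72 and rho = 0.66 (permutation p = 0.00651 and 0.0249) and r = 0.42 without the 2 livers farthest in Fdps, and Mvk with Fdps had 0.76 and 0.66 (permutation p = 0.00429 and 0.0238) and then r = 0.46. The median r over the 36 pairs was 0.33 without leucine replicate 3, and 0.29 without leucine replicates 3 and 4, the livers highest and lowest for the mean of the 9 genes. Without any other liver alone it lay between 0.45 and 0.59. Markers of red blood cells, which a liver holds in its vessels, also stood highest in leucine replicate 3. Of 9 listed 5 were measured, their summed linear signal was 1359 to 6623 in leucine livers, 2293 to 2937 in dairy livers and 856 to 1608 in casein livers, and the part of blood in the pattern was not tested. All 5 had r above 0 with the mean of the 9 genes (median 0.49), and all 9 measured acute phase genes, which the liver turns on in inflammation, did so too (median 0.41). Their summed signal was 22803 to 55018 in leucine livers, 33310 to 67369 in dairy livers and 24942 to 53537 in casein livers, and their part was not tested. Bulk signals cannot tell fewer cells of a type from less RNA per cell. The 13 measured hepatocyte markers, such as albumin, had a summed signal of 90713 to 97827 in leucine livers, 80175 to 101606 in dairy livers and 89768 to 108986 in casein livers.

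Insig1 and Lss stood apart from the other 7 genes. The median r over the 21 pairs without them was 0.65 (lowest 0.21, Sqle with Dhcr7). The 8 pairs with Insig1 had a median r of 0.06 and ran from -0.05 with Dhcr7 to 0.34 with Idi1. Those with Lss had a median of 0.11 and ran from -0.24 with Mvk to 0.56 with Sqle. Mvd with Lss had r = 0.11, which was 0.78 without the 2 livers farthest in Mvd and 0.31 without those farthest in Lss. The pairs of Lss with Mvk, Idi1, Fdps, Fdft1 and Dhcr7 lay between -0.29 and 0.33 without the 2 livers farthest in the other gene. Lss with Sqle, its neighbour in the pathway, had r = 0.56 and rho = 0.45 over 12 livers (permutation p = 0.0561 and 0.147, unadjusted). This r was 0.14 without the 2 livers farthest in Sqle and 0.53 without those farthest in Lss. It was 0.63 without the 2 arrays of narrowest spread. Among the other 7 genes the pairs of Sqle with Mvk, Fdft1 and Dhcr7 were the weaker ones (r = 0.29, 0.39 and 0.21).

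**Figure D3:**
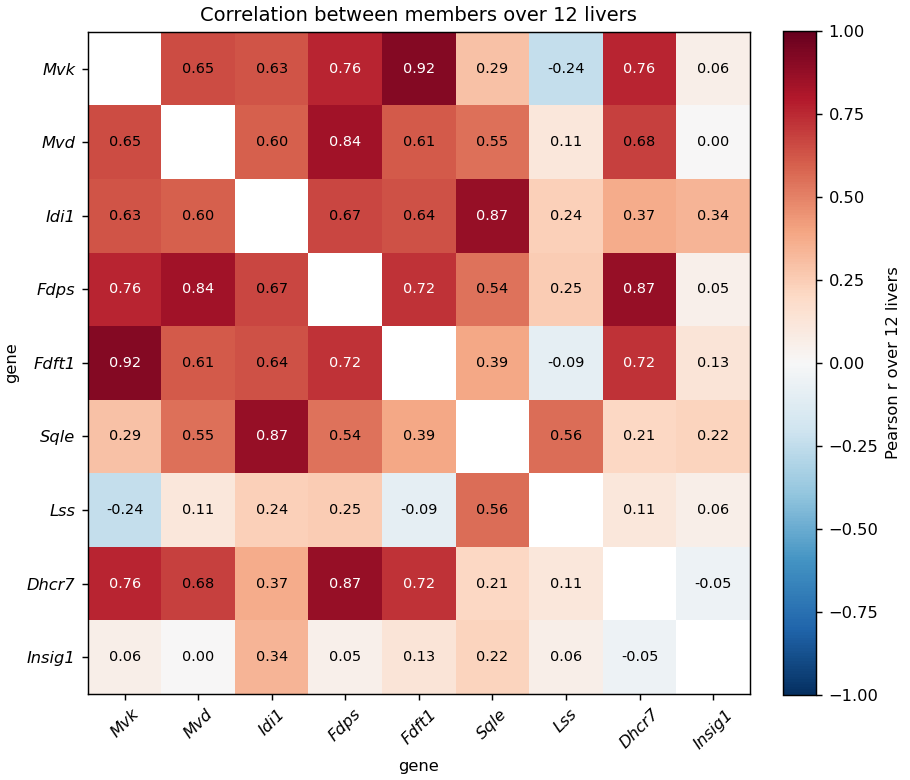
Pearson r between each pair of the 9 genes over the 12 livers, with genes in pathway order on both axes and r printed in each cell. Values run from -0.24 (Mvk with Lss) to 0.92 (Mvk with Fdft1), and the rows of Lss and Insig1 are pale but for Lss with Sqle (0.56).

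The relation with Sqle was also tested over the whole table, as the slope of each other probe set on the Sqle signal with a term for diet in limma. Over all 15309 probe sets 0.0% passed the adjusted threshold, and 0 of the 9 probe sets of the other 8 genes did. At an unadjusted p under 0.05 and with a positive slope there were 4 of these 9, against 6.33% of all probe sets. That count rested on single livers. In either direction it was 1 of 9 without leucine replicate 3 (1464 of all 15309 probe sets) and without dairy replicate 2 (1180 of all), 2 without dairy replicate 3, and 3 or 4 without any other liver. With all 12 livers the 4 were Idi1, with a slope of 0.871 ± 0.146 (SE, limma adjusted p = 0.219), Lss with 0.659 ± 0.276 (adjusted p = 0.417), Mvd with 0.331 ± 0.132 (adjusted p = 0.395) and Fdps with 0.286 ± 0.131 (adjusted p = 0.461). With single livers left out the slope ran from 0.768 to 1.14 for Idi1, 0.461 to 0.73 for Lss, 0.158 to 0.417 for Mvd and 0.0719 to 0.4 for Fdps, the last 2 lowest without leucine replicate 3. Idi1 ranked 4 of 14505 genes by r with Sqle over the 12 livers. Mvk, Fdft1, Dhcr7 and Insig1 had slopes of 0.146, 0.346, 0.196 and 0.131 with adjusted p from 0.584 to 0.914. With array quality weights 3 of the 9 passed, as did 1286 probe sets in the whole table, so the count of calls depended on how arrays were weighted.

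The mean of the 9 genes, each centred on its own mean, was used as a profile of the pathway. It stood at -0.48, 0.24, 0.90 and -0.63 in leucine livers, 0.16, 0.35, -0.39 and -0.04 in dairy livers, and 0.18, -0.12, -0.05 and -0.11 in casein livers. The diet means were 0.01, 0.02 and -0.03 for leucine, dairy and casein, while the leucine livers spanned the whole range of the 12. Fdps and Idi1 followed the mean of the other 8 most closely (r = 0.83 and 0.82), and Lss and Insig1 least (0.22 and 0.16). These are descriptions over 12 livers.

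Among 14497 genes outside the 9, Cyp51 had the pattern most like this profile, with r = 0.959. Cyp51 is lanosterol demethylase, the step that follows Lss. Msmo1, which oxidises the next methyl groups (r = 0.858), Acat2, the cytosolic thiolase at the start of the route (0.828), and Tm7sf2, a sterol reductase (0.826), ranked 2, 4 and 5. The 4 genes belong to the list of other enzymes. The rest of the 10 highest were Dhx32 (0.841), the lectin Lman2 (0.807), Kitlg (0.792), Cav2 (0.791), Tm7sf3 (0.783) and Mtmr14 (0.781), which were on none of the lists. Without leucine replicates 3 and 4 the r of Cyp51 was 0.91 and its rank 3, while Msmo1, Acat2 and Tm7sf2 had r of 0.73, 0.71 and 0.73 and ranks 72, 85 and 78. The 5 lowest were Slc4a10 (-0.871), Cdh6 (-0.871), Kalrn (-0.837), the globin Ngb (-0.834) and Spred2 (-0.814), whose SD over the 12 livers was from 0.13 to 0.30. Kitlg, Slc4a10, Cdh6 and Ngb were dim, with mean log2 signals of 3.36, 3.21, 3.1 and 4.25, against a median of 5.325 over all named probe sets.

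Of the 12 other enzymes 8 had r of at least 0.5 with the profile and 11 had r above 0, against 2.4% and 47.7% of all other genes. Their median r was 0.62, and -0.02 over all other genes. The exception below 0 was Acat1 (-0.27). Pmvk, the kinase between Mvk and Mvd, had r of 0.54, Hsd17b7, a sterol ketoreductase, 0.70, and Ebp 0.74. Cyp51 had a mean difference of -0.04 between leucine and casein and of -0.10 between dairy and casein (limma adjusted p = 0.999 and 0.944), within its SD of 0.58 over the 12 livers.

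**Figure D4:**
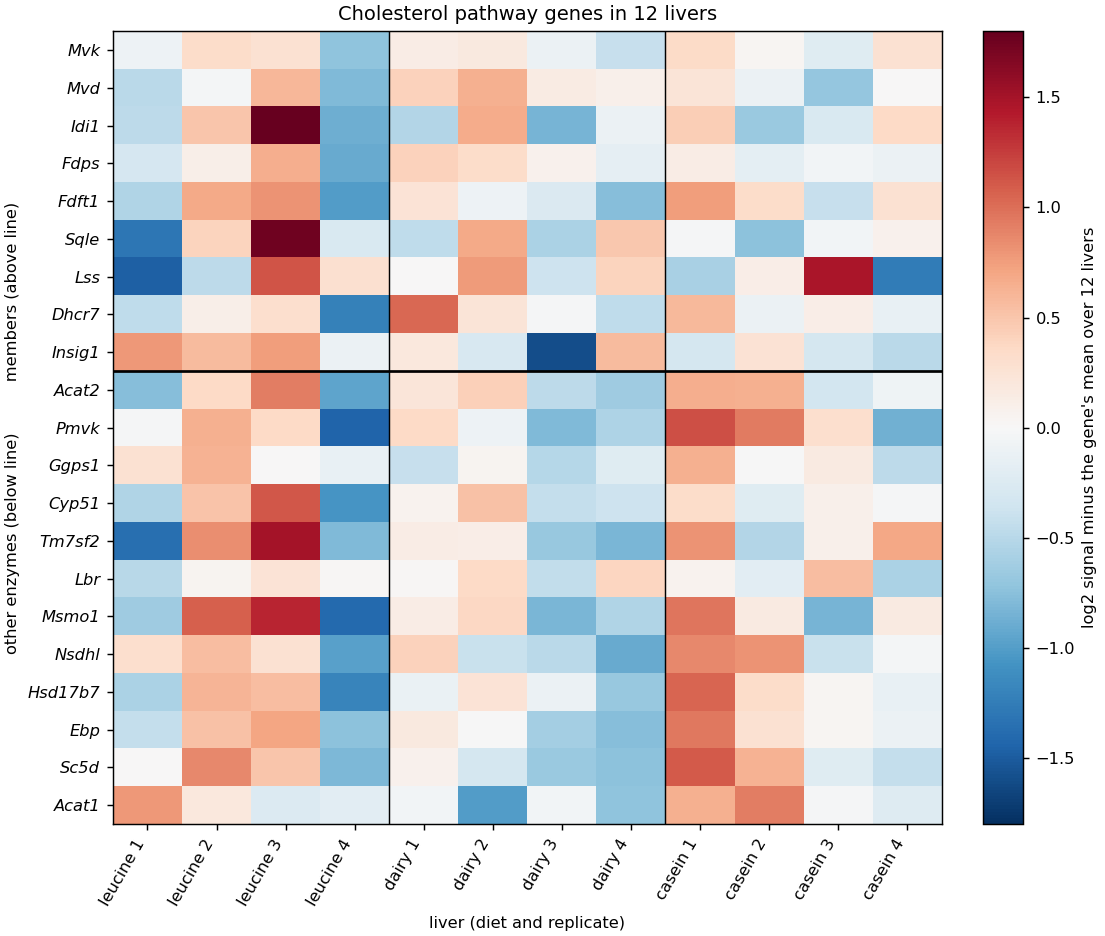
Log2 signal minus each gene's own mean over 12 livers (colour) for the 9 genes above the line and the 12 other enzymes below it, with livers along the horizontal axis. Leucine replicate 3 is high and leucine replicate 4 low for most rows, while Lss and Insig1 depart from the rows around them.

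**Figure D5:**
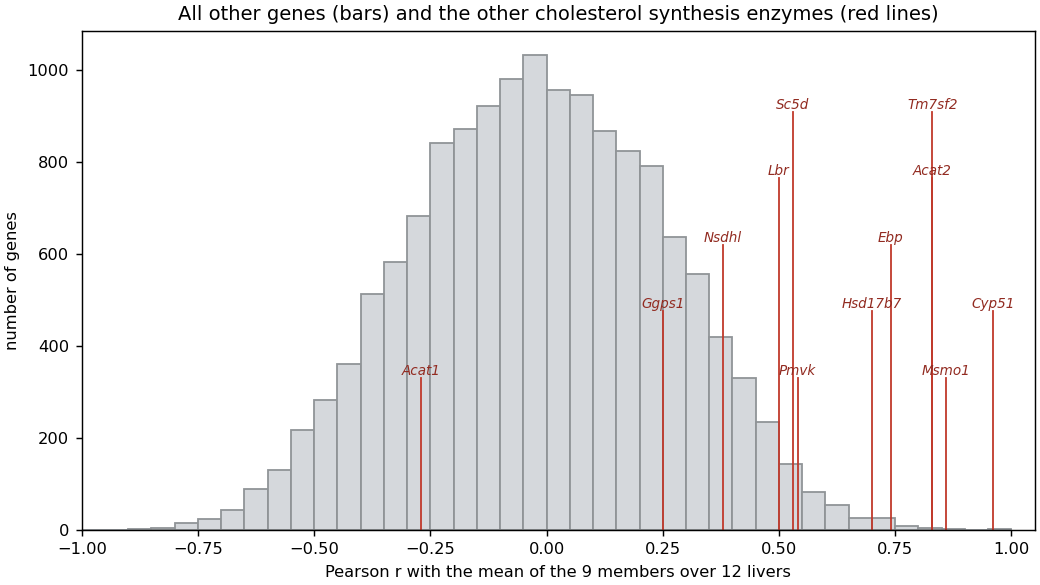
Number of genes (vertical axis) by Pearson r with the mean of the 9 genes over 12 livers (horizontal axis, 14497 other genes), with the 12 other enzymes as red lines at their r. Most red lines lie to the right of the bulk, up to Cyp51 at 0.96, and Acat1 lies at -0.27.

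Lists of regulators, uptake genes, efflux genes and fatty acid enzymes had median r of 0.08, 0.2, 0.04 and 0.01 with the profile, nearer to 0 than the other enzymes of the pathway. Of 13 measured sterol regulators 1 had r of at least 0.5, Srebf2, the gene of SREBP-2 (r = 0.74). Scap had r of -0.01 and Insig2 0.08. Srebf2 differed by 0.50 between dairy and casein and by 0.13 between leucine and casein (limma adjusted p = 0.497 and 0.999). Of 8 genes of sterol uptake and trafficking 3 had r of at least 0.5, the lipoprotein receptors Scarb1 and Lrp1 (0.53 each) and Tmem97 (0.51). Of 13 genes of sterol efflux, esterification and bile acid synthesis 0 had r of at least 0.5, and the canalicular sterol exporter Abcg5 had -0.55.

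Of 15 measured enzymes of fatty acid synthesis, targets of the related factor SREBP-1c, the highest r with the profile was that of Acss2, acetyl-CoA synthetase, with 0.55, and Fasn, fatty acid synthase, had 0.01. All 15 had lower means than casein with leucine (median -0.494) and with dairy (median -0.760). Over all probe sets 43.8% had a higher mean than casein with leucine and 46.9% with dairy. In each comparison 0 of the 15 passed the threshold, and the 2 comparisons share the casein livers. For all of the 15 but Acacb, casein replicates 1 and 2 both lay above replicates 3 and 4. The casein values of Fasn were 10.94, 11.42, 8.36 and 8.73. Single livers were not left out for these genes.

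The arrays differed little in overall signal, with medians from 4.43 to 4.62 and SDs over probe sets from 2.08 to 2.33, and dairy replicate 3 and casein replicate 4 had the narrowest spread. The SD of the array had r = 0.35 and rho = 0.42 with the profile over 12 livers, and its part in the pattern was not tested.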

How the data were processed

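Total RNA of 12 livers, extracted with Trizol and RNeasy columns per the labels' protocols, was hybridised to Affymetrix Rat Gene 1.0 ST arrays. The authors deposited log2 signals, 1 value a probe set and array, and per the submitters' processing notes Expression Console produced them. Its version, summarisation, normalization and genome build were not given in the sources used here. Medians and SDs of the arrays differ slightly, so differences in spread between arrays remain in the values. Correlations between arrays across named probe sets ran from 0.9323 to 0.9896, and no 2 arrays were identical. Signals near background understate a change. Precision is limited by the number of arrays.

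The platform annotation gave exactly 1 symbol to 15310 of 29214 probe sets, several to 323 and none to 13581. The Entrez IDs of 15279 were found in the RefSeq gene table, with the same symbol for all of them. Tests used limma 3.58.1 in R 4.3.3 on 3 group means over all 12 arrays (9 residual and 3.448 prior degrees of freedom), two-sided, with Benjamini-Hochberg adjustment over all 15310 probe sets at a threshold of 0.05. The covariate planned for the test of coordinated variation, Hmgcs1, had no probe set under the rule, so Sqle, planned as an alternative, took its place. Permutation tests of correlations used 100000 resamples with NumPy 2.4.6, two-sided, with ranks from SciPy 1.17.1. For genes with several probe sets the one with the highest mean stood for the gene.

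Named genes were the 9 genes, at most 4 of each of 5 lists (past the threshold first, then by r with the profile, with further list members named for their role after their values were seen), and the 10 genes of highest and 5 of lowest r with the profile. The members and lists were chosen with earlier results of these data known. The fits were checked on simulated data. Replicate numbers were checked for pairing. Of 12 same-numbered pairs across diets the correlation of deviations from diet means ran from -0.505 to 0.59. Its median was 0.285, against -0.152 for other pairs, so same-numbered livers were more alike at the median. The labels do not say what the numbers stand for, and the cause was not tested. The main fit did not pair livers by number, and a fit with the number as a block is among the alternatives.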

Additional observations from a re-analysis of the deposited data

Results flagged for a closer look

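Sqle in casein replicate 2 had a log2 signal of 7.28, below the other 3 casein livers at 7.98, 8.01 and 8.10. The gap was 0.861 of the range of the 4 livers, above Dixon's 95% critical value for 4 samples. Of 30 sets of 4 livers examined (10 probe sets in 3 diets) this was the only 1 past that value, and chance flags about 1 in 20.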

How the results depend on the processing

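With 4 livers a diet, the intervals of the most variable genes include changes of more than 1 on the log2 scale, which these data do not exclude. The count of member probe sets past the threshold was 0 in each diet comparison and for any diet under every alternative run, from quantile normalization and median centring to the replicate block, which changed no call (0 in each fit). Same-numbered pairs had a higher median correlation (0.285) than other pairs (-0.152), though 1 stood at -0.505. For the slopes on Sqle the count was 0 under every alternative except array quality weights, where it was 3, when 1286 probe sets passed in all, and the cause was not tested. Covariates Fdft1, Fdps, Mvd and Insig1, chosen after seeing the data, and Idi1 gave 0. At an unadjusted limma p under 0.05 in either direction the count was 5 of 9 with Idi1 (440 of all 15309 probe sets) and 5 with Fdft1 (400). It was 6 with Fdps (191), 6 with Mvd (195) and 0 of 8 with Insig1 (1791 of 15308). Hmgcs1 as covariate was not run. Over all probe sets, dairy against casein passed 13, against 22 after quantile normalization, 42 over all probe sets in the file, 8 with trend and robust fitting, 6 in the 8 arrays of those diets, 1182 with weights, 164 without both arrays of narrowest spread and 3 to 237 with single livers left out. For any diet 5 passed, against 0 after quantile normalization, 12 over all in the file, 3 with the replicate block, 418 with weights and 0 to 23 with single livers left out. Leucine against casein passed 0 except for 2 without leucine replicate 2, and leucine against dairy 0 except for 1 with the block. The median r of the pairs was 0.44 after quantile normalization, 0.45 by rank, 0.55 after subtracting diet means, 0.33 to 0.59 with single livers left out and 0.29 without leucine replicates 3 and 4 (chosen after seeing the data).

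Signs turned only in values that had not passed the threshold. Leucine minus casein for Mvd was 0.00433 after quantile normalization and 0.00856 without both arrays of narrowest spread. Dairy minus casein was -0.0177 for Dhcr7 and 0.378 for Idi1 with weights. Without those 2 arrays it was 0.18 for Idi1 and 0.284 for the brighter Insig1 probe set, which stood at 0.00398 after quantile normalization. Leucine minus dairy for Mvk was -0.0688 after quantile normalization, -0.0274 with weights and -0.00904 without the 2 arrays, and for Sqle -0.193 with weights and -0.0907 without them. The slopes of the Insig1 probe sets on Sqle were -0.0615 and -0.031 with weights, and -0.0184 for the brighter one without the 2 arrays. With single livers left out, leucine minus casein ran from -0.525 to 0.082 for Fdft1, -0.319 to 0.204 for Fdps, -0.245 to 0.641 for Idi1, -0.484 to 0.45 for Lss, -0.3 to 0.168 for Mvd, -0.289 to 0.0637 for Mvk and -0.207 to 0.809 for Sqle. Dairy minus casein ran from -0.2 to 0.3 for Dhcr7, -0.452 to 0.0497 for Idi1, -0.345 to 0.373 and -0.0857 to 0.467 for the Insig1 probe sets and -0.135 to 0.776 for Lss. Leucine minus dairy ran from -0.0765 to 0.53 for Fdft1, -0.0818 to 0.804 for Idi1, -0.748 to 0.12 for Lss, -0.12 to 0.233 for Mvk and -0.426 to 0.59 for Sqle. Slopes ran from -0.0182 to 0.294 for Dhcr7, and from -0.0329 to 0.367 and -0.0328 to 0.398 for the Insig1 probe sets.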
